A study of Homo sapiens with 12 samples.

Results

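The CDK inhibitor genes are the 7 human genes CDKN1A, CDKN1B, CDKN1C, CDKN2A, CDKN2B, CDKN2C and CDKN2D. They were taken by symbol from a table of read counts for 26364 genes, and each of the 7 symbols matched 1 row. The table comes from a study of chidamide and MYC in double expressor lymphoma, which are B-cell lymphomas with high MYC and BCL2 protein. Chidamide is an inhibitor of class I and some class II histone deacetylases. The 12 libraries of poly(A) RNA form 4 groups of 3: cultures labelled JeKo-1 given 4 µM chidamide for 12 h, cultures labelled JeKo-1 given vehicle for 12 h, Granta-519 cultures given 4 µM chidamide for 12 h, and Granta-519 cultures given vehicle for 12 h. JeKo-1 and Granta-519 are established human mantle cell lymphoma lines, and the labels name no genetic change made to either. Each group is one line at one dose and one time. The labels do not say whether the 3 libraries of a group came from separate cultures. The p-values here set the difference between groups against the scatter of libraries within groups, and that scatter may be only technical.

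CDK inhibitors are proteins that stop cyclin-dependent kinases (CDKs), the enzymes that drive the cell cycle. The Cip/Kip proteins p21 (CDKN1A), p27 (CDKN1B) and p57 (CDKN1C) bind whole cyclin-CDK complexes, with CDK2 complexes the best known target. The INK4 proteins p16 (CDKN2A), p15 (CDKN2B), p18 (CDKN2C) and p19 (CDKN2D) bind CDK4 and CDK6 and keep D-type cyclins away from them. Active CDK4 and CDK6 phosphorylate the retinoblastoma protein, which releases E2F factors and their S-phase target genes. The CDKN2A gene also encodes ARF, a protein read in another frame, and its row in the table does not separate the p16 and ARF transcripts. CDKN1A is a classic gene induced by histone deacetylase inhibitors in many cell types, and loss of CDKN2A is a known lesion of mantle cell lymphoma.

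The libraries held 12873642 to 16592694 counts. The B-cell markers MS4A1, CD79A, CD79B, PAX5 and CD22 had counts in all 4 groups. The libraries labelled JeKo-1 went against that name on both mantle cell lymphoma markers. SOX11 had 0 counts in the 6 libraries labelled JeKo-1, against 5788 counts in chidamide-treated and 7225 counts in vehicle-treated Granta-519 cultures. CCND1 is the cyclin D1 gene that the mantle cell lymphoma translocation activates. It had 44 counts in the chidamide and 5 counts in the vehicle libraries labelled JeKo-1, against 75957 and 97605 counts in Granta-519. In CPM (counts scaled to library size, with SD, n = 3) these are 0.93 ± 0.14 with chidamide and 0.12 ± 0.04 with vehicle under that label. Granta-519 had 1747 ± 109 CPM with chidamide and 2114 ± 43.0 CPM with vehicle. The libraries with that label are therefore called the libraries labelled JeKo-1 throughout.

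The promoters below, from 250 bases before to 50 bases after the start in RefSeq (GRCh38.p14, matched by symbol), belong to the 4 genes whose level changed most in at least one line with an entry in that table, 3 that rose and 1 that fell. Capitals mark GGGCGG on either strand (CCGCCC where it lies on the other strand). This is the GC box, the known binding sequence of Sp1, which is the best studied route to CDKN1A under histone deacetylase inhibitors. No TATAAA was found in them.
CDKN1A, chr6:36678464-36678763, plus strand: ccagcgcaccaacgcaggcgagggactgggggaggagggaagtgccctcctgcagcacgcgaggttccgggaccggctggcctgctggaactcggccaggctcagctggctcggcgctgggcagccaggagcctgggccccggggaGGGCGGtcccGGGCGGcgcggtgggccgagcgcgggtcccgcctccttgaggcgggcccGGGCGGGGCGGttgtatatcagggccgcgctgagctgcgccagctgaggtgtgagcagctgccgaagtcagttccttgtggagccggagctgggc
CDKN2B, chr9:22009256-22009555, minus strand: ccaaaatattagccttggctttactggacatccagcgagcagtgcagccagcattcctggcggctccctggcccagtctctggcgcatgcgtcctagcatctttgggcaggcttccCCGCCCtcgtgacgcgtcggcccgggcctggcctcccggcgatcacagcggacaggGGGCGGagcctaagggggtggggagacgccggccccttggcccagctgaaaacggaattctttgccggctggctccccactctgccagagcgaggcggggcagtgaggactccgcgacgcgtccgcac
CDKN2D, chr19:10568930-10569229, minus strand: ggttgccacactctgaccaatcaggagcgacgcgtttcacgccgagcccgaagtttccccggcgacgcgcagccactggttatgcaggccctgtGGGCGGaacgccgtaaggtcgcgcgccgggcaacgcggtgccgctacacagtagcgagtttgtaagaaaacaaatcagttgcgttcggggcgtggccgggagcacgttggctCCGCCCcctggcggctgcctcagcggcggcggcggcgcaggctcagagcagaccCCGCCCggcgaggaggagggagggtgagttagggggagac
CDKN2C, chr1:50968456-50968755, plus strand: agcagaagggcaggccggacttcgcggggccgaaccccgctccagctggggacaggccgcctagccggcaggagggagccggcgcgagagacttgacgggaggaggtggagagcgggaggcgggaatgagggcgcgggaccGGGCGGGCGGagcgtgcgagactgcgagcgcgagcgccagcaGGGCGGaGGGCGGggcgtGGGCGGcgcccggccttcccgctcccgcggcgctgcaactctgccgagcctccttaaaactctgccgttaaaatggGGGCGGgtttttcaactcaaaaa

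The search of both strands found 4 GGGCGG in the CDKN1A promoter, 2 of them overlapping, with first bases at -104, -94, -45 and -40 from the start. CDKN2B had 2, CDKN2D had 3, and the CDKN2C start shown had 6, while the other 2 CDKN2C starts in the table had 0 and 1. Over 35116 promoters of the same length, 45% held at least 1 GGGCGG, 26.7% at least 2, 15.8% at least 3, 9.06% at least 4 and 2.86% at least 6, and 11.5% held TATAAA. CDKN1A was 74.3% GC, the CDKN2C start shown 71.3% (46.3% and 49.3% at the other 2), CDKN2D 68% and CDKN2B 67.3%, against a median of 58.7% over all promoters. A match is a description of the letters and no measure of binding.

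Chidamide raised 4 of the 7 genes in the libraries labelled JeKo-1 (CDKN1A, CDKN1B, CDKN2B and CDKN2D) and 2 in Granta-519 (CDKN1A and CDKN2D). CDKN2C fell to 0.497 of vehicle in Granta-519 and to 0.897 of vehicle under the JeKo-1 label, and CDKN1C fell to 0.545 of vehicle in Granta-519. The CDKN2C call under the JeKo-1 label and the CDKN1C call were each lost under several settings, given with the gene. CDKN2A did not pass the test under the JeKo-1 label. CDKN2A and CDKN2B had 0 counts in Granta-519, and CDKN1C had 0 counts under the JeKo-1 label. Over the 15087 tested genes, edgeR's quasi-likelihood test with Benjamini-Hochberg adjustment at 0.05 called much of the transcriptome, 66.4% under the JeKo-1 label and 70.9% in Granta-519. Under the JeKo-1 label 35.3% of all tested genes were higher and 31.1% lower with chidamide, and in Granta-519 39.6% were higher and 31.3% lower. Read against these shares, 4 higher and 1 lower of 7, and 2 higher and 2 lower of 7, are not results about the family as a whole, and what follows rests on the size of the single changes. The median log2 change of all tested genes was 0.04 under the JeKo-1 label and 0.08 in Granta-519. In bulk RNA, a change in the share of cells in a state and a change in RNA per cell cannot be told apart.

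**Figure D1:**
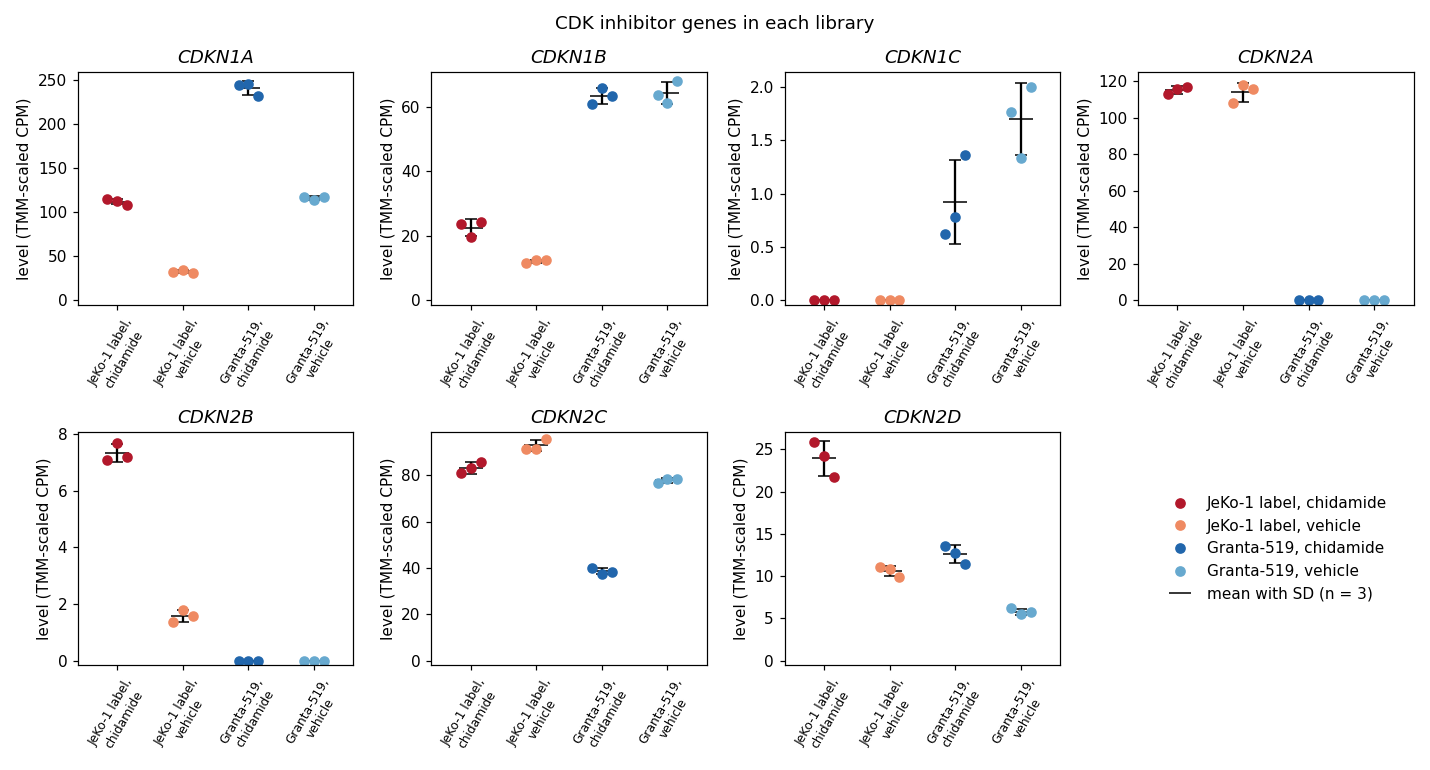
Level of each CDK inhibitor gene in TMM-scaled CPM (y axis, starting near 0) in the 12 libraries by group (x axis), with a dot per library and a bar for the mean with its SD (n = 3). CDKN1A and CDKN2D are higher with chidamide in both lines, CDKN2A and CDKN2B lie at 0.00 in Granta-519, and CDKN1C lies at 0.00 in the libraries labelled JeKo-1.

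CDKN1A, which encodes p21, had 115, 113 and 109 CPM in the chidamide libraries labelled JeKo-1, against 32.9, 34.8 and 31.1 CPM in the vehicle libraries. In Granta-519 it had 245, 246 and 232 CPM with chidamide, against 118, 114 and 118 CPM with vehicle. Every chidamide library lay above every vehicle library of its line, and the chidamide libraries labelled JeKo-1 overlapped the untreated level of Granta-519. CDKN1A rose by 1.77 ± 0.06 on the log2 scale under the JeKo-1 label (SE, 3.41-fold, adjusted p = 2.93e-33) and by 1.05 ± 0.05 in Granta-519 (2.07-fold, adjusted p = 6.56e-27). The 2 changes differed by 0.72 ± 0.07 on the log2 scale, JeKo-1 label minus Granta-519 (adjusted p = 8.43e-12). The line with the lower vehicle level, at 0.283 of Granta-519 (log2 difference -1.82 ± 0.06, adjusted p = 2.71e-35), was thus the one with the larger fold, while chidamide left it at 113 ± 3.35 CPM, against 241 ± 7.80 CPM in treated Granta-519 (SD, n = 3 each).

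CDKN1B, which encodes p27, had 23.8, 19.6 and 24.3 CPM in the chidamide libraries labelled JeKo-1, against 11.6, 12.4 and 12.4 CPM in the vehicle libraries. In Granta-519 it had 60.8, 65.9 and 63.2 CPM with chidamide, against 63.5, 61.2 and 68.0 CPM with vehicle. The groups were apart under the JeKo-1 label and overlapped in Granta-519. CDKN1B rose 1.87-fold under the JeKo-1 label (log2 change 0.91 ± 0.09, adjusted p = 2.17e-12), and its log2 change in Granta-519 was -0.02 ± 0.07 (adjusted p = 0.794). The difference between the lines was 0.93 ± 0.12 on the log2 scale (adjusted p = 2.36e-09). With vehicle, the JeKo-1 label stood at 0.189 of the Granta-519 level (log2 difference -2.41 ± 0.08, adjusted p = 6.96e-33), and the chidamide libraries labelled JeKo-1, at 22.6 ± 2.57 CPM, stayed below every Granta-519 library.

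CDKN1C, which encodes p57 and is imprinted in many tissues, had counts in Granta-519, where it was the lowest member with any. It had 9, 11 and 20 counts in the chidamide libraries of Granta-519, against 27, 21 and 30 counts in the vehicle libraries. These are 0.62, 0.78 and 1.36 CPM with chidamide, against 1.76, 1.33 and 2.00 CPM with vehicle, so the highest chidamide library lay above the lowest vehicle library. Its log2 change was -0.88 ± 0.37 (0.545-fold, adjusted p = 0.0335). That call was lost without chidamide replicate 1 (log2 change -0.64, adjusted p = 0.183), without chidamide replicate 2 (-0.75, 0.125), without vehicle replicate 1 (-0.85, 0.0797) and without vehicle replicate 3 (-0.75, 0.127), and also in DESeq2 (-0.85, 0.182) and with upper-quartile scaling (-0.78, 0.0589). Under the JeKo-1 label it had 0 counts in all 6 libraries, which allows a level of up to 0.0643 CPM with chidamide and 0.0749 CPM with vehicle (3 counts over the 3 libraries of a group, for counting error only). No fold change was taken there. With vehicle it was at least 22.6-fold lower under the JeKo-1 label than in Granta-519.

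CDKN2A had 113, 116 and 117 CPM in the chidamide libraries labelled JeKo-1, against 108, 118 and 116 CPM in the vehicle libraries, and the groups overlapped. Its log2 change was 0.02 ± 0.06 (adjusted p = 0.771). CDKN2A was called higher under 4 of the 23 alternatives: with upper-quartile scaling (log2 change 0.17, adjusted p = 0.00819), with library-size scaling (0.15, 0.0152), and on the length-scaled values in limma with a pseudocount of 0.1 (0.15, 0.0252) and with no filter (0.15, 0.0193). The median log2 change of all genes under these settings was 0.189, 0.175, 0.092 and 0.049, in that order. In Granta-519 CDKN2A had 0 counts in all 6 libraries, which allows up to 0.069 CPM with chidamide and 0.065 CPM with vehicle. With vehicle, the gene was at least 1746-fold higher under the JeKo-1 label than in Granta-519.

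CDKN2B, the p15 gene next to CDKN2A, had 120, 108 and 113 counts in the chidamide libraries labelled JeKo-1, against 20, 24 and 19 counts in the vehicle libraries. These are 7.09, 7.68 and 7.19 CPM, against 1.37, 1.80 and 1.57 CPM, with no overlap. CDKN2B rose 4.62-fold (log2 change 2.21 ± 0.23, adjusted p = 6.34e-12), the largest change of a member in either line. In Granta-519 it had 0 counts in all 6 libraries, and its vehicle level was at least 24.2-fold higher under the JeKo-1 label. CDKN2B-AS1, a long noncoding RNA on the opposite strand that overlaps CDKN2A and CDKN2B in GENCODE 29, had 225 counts in the chidamide and 164 counts in the vehicle libraries labelled JeKo-1 (log2 change 0.23 ± 0.22, adjusted p = 0.363). Whether counting used strand is not given in the sources used here, so reads of the antisense gene and of CDKN2A or CDKN2B cannot be told apart where they overlap.

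CDKN2C, which encodes p18 and is the INK4 gene best known in B-cell and plasma cell differentiation, was the member that fell furthest. In Granta-519 it had 40.1, 37.5 and 38.5 CPM with chidamide, against 76.8, 78.5 and 78.6 CPM with vehicle. Under the JeKo-1 label it had 80.9, 83.2 and 86.0 CPM with chidamide, against 91.5, 91.6 and 95.8 CPM with vehicle. The groups were apart in both lines. CDKN2C fell by 1.01 ± 0.06 on the log2 scale in Granta-519 (adjusted p = 5.12e-22), while the log2 change under the JeKo-1 label was -0.16 ± 0.05 (adjusted p = 0.00858), a difference of 0.85 ± 0.08 between the lines (adjusted p = 3.12e-13). The small call under the JeKo-1 label was lost with upper-quartile scaling (log2 change -0.01, adjusted p = 0.9), with library-size scaling (-0.03, 0.707), with no count filter (-0.11, 0.128), in the deposited length-scaled values (-0.02, 0.687) and without chidamide replicate 1 (-0.12, 0.077), and it lies between -0.17 and -0.01 over 23 alternatives. With vehicle the lines were close, the JeKo-1 label standing 1.19-fold above Granta-519 (log2 difference 0.25 ± 0.05, adjusted p = 3.1e-05).

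CDKN2D, which encodes p19, had 25.9, 24.2 and 21.8 CPM in the chidamide libraries labelled JeKo-1, against 11.1, 10.8 and 9.94 CPM in the vehicle libraries. In Granta-519 it had 13.6, 12.7 and 11.5 CPM with chidamide, against 6.19, 5.51 and 5.73 CPM with vehicle. None of the 4 groups overlapped another. CDKN2D rose 2.25-fold under the JeKo-1 label (log2 change 1.17 ± 0.11, adjusted p = 1.86e-14) and 2.17-fold in Granta-519 (1.12 ± 0.13, adjusted p = 2.47e-11). The difference between the lines was 0.05 ± 0.17 on the log2 scale (adjusted p = 0.866), the smallest of the 4 members with counts in both lines, although the vehicle level was 1.83-fold higher under the JeKo-1 label (0.87 ± 0.13, adjusted p = 3.32e-08).

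**Figure D2:**
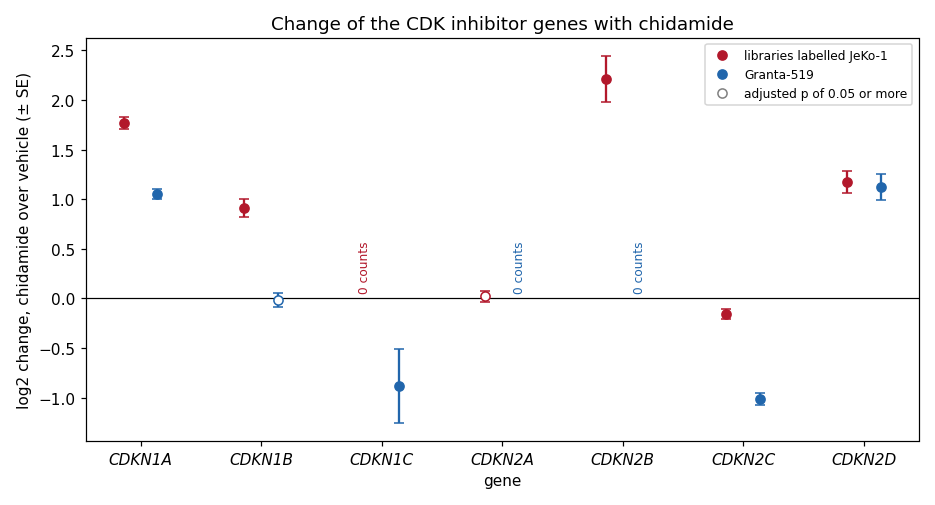
Log2 change of each CDK inhibitor gene with chidamide over vehicle (y axis, with SE) by gene (x axis), for the libraries labelled JeKo-1 and for Granta-519, with open circles where the adjusted p was 0.05 or more. CDKN2D has 1.17 and 1.12 in the 2 lines, while CDKN1B has 0.91 under the JeKo-1 label and -0.02 in Granta-519.

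Of the 4 members with counts in both lines, 3 (CDKN1A, CDKN1B and CDKN2C) had a drug effect that differed between the lines, against 39.5% of all tested genes. All 3 differences were towards a higher value under the JeKo-1 label, a direction called for 20% of all genes. CDKN1C, CDKN2A and CDKN2B each had 0 counts in one line, so no difference of effects was taken for them. With vehicle, the 4 members with counts in both lines all differed between them, against 79.8% of all tested genes. CDKN1A and CDKN1B were lower under the JeKo-1 label, a direction called for 44.3% of all genes, and CDKN2C and CDKN2D were higher, a direction called for 35.5%. The other 3 passed the filter on low counts through the line that has counts, so a difference between the lines was fixed by the filter and is given only as a bound. Groups did not overlap for 66.6% of all genes under the JeKo-1 label, 73.8% in Granta-519 and 79.4% between the vehicle groups.

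Levels were compared between genes on the deposited length-scaled values, which divide by gene length and by library. The 7 genes summed to 28.8 to 29.1 with chidamide and 18.4 to 19.3 with vehicle under the JeKo-1 label, and to 25.9 to 27.1 with chidamide and 18.8 to 19.8 with vehicle in Granta-519 (lowest and highest of 3 libraries each). The vehicle sums thus overlapped between the lines on these values, while their make-up did not. These values lack the TMM scaling of the CPM, and no sum was taken with it, so the overlap may depend on scaling. INK4 genes made 65.5 ± 0.713% of the sum with chidamide and 83.8 ± 0.545% with vehicle under the JeKo-1 label, against 14.8 ± 0.589% and 28.4 ± 0.619% in Granta-519. The INK4 share was lower with chidamide in both lines. The INK4 sum itself was higher with chidamide under the JeKo-1 label, at 19.0 ± 0.146 against 15.9 ± 0.456 with vehicle. In Granta-519 it was lower, at 3.96 ± 0.192 with chidamide against 5.5 ± 0.0266 with vehicle. Part of the rise under the JeKo-1 label was CDKN2A, at 10.5 with chidamide and 9.46 with vehicle. In TMM-scaled CPM CDKN2A had 115 ± 2.02 and 114 ± 5.35 there, so the size of that rise depends on scaling. The Cip/Kip sum was higher with chidamide in both lines, at 10.0 ± 0.249 against 3.08 ± 0.109 with vehicle under the JeKo-1 label and at 22.7 ± 0.542 against 13.8 ± 0.474 with vehicle in Granta-519.

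Under the JeKo-1 label CDKN2A led the order of levels in both groups, with 36.3 ± 0.825% of the sum with chidamide and 49.9 ± 1.0% with vehicle. CDKN1A stood second with chidamide, at 8.19 against 5.05 for CDKN2C on the length-scaled values, and below CDKN2C with vehicle, at 2.19 against 5.13, and the ranges of the 2 genes did not overlap in either group. In Granta-519 CDKN1A led both groups, with 65.8 ± 0.441% of the sum with chidamide and 44.1 ± 0.427% with vehicle, followed by CDKN1B and CDKN2C. Neighbouring members in the order did not overlap in any group, apart from CDKN2A and CDKN2B, both at 0 in Granta-519.

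**Figure D3:**
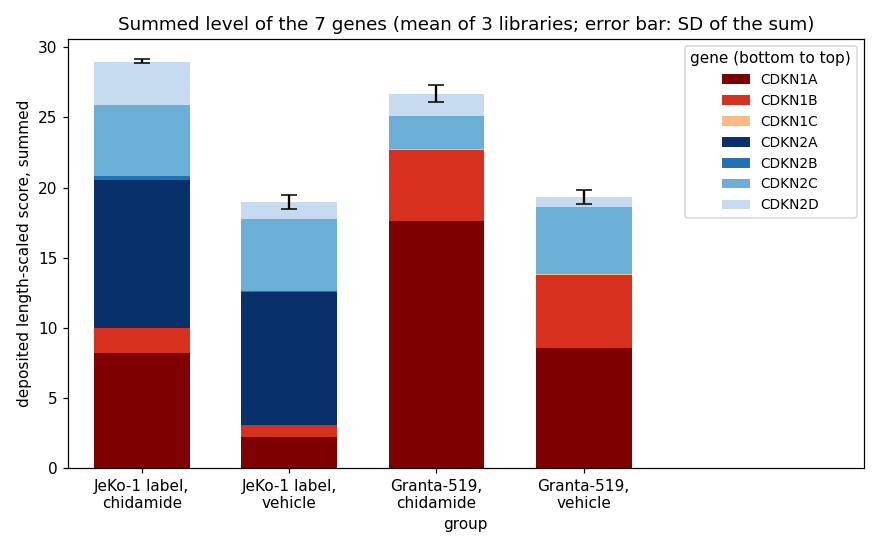
Sum of the deposited length-scaled values of the 7 genes (y axis, from 0) in the 4 groups (x axis), stacked by gene, each part being a mean of 3 libraries and the error bar the SD of the sum. On these values, which lack TMM scaling, the vehicle bars have like heights of 19.0 and 19.3. Their make-up differs, red Cip/Kip parts being small under the JeKo-1 label and large in Granta-519.

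CDKN2A and CDKN2B lie side by side on chromosome 9, and their zeros in Granta-519 were part of a longer run. In the gene order of RefSeq, 24 consecutive genes of the count table, those from IFNA21 to DMRTA1, had 0 counts in all 6 Granta-519 libraries. Of these, 18 also had 0 counts under the JeKo-1 label, most of them interferon alpha genes, which cells transcribe after viral sensing. The run held 5 genes with 30 or more counts over the 6 libraries labelled JeKo-1. These were CDKN2A with 5387 counts with chidamide and 4545 with vehicle, CDKN2B with 341 and 63, CDKN2B-AS1 with 225 and 164, MTAP with 4375 and 3767, and KLHL9 with 964 and 497. MTAP salvages methionine from methylthioadenosine, and KLHL9 is an adaptor of a ubiquitin ligase and was named after its values were seen.

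Beyond the run, HACD4 had 369 counts with chidamide and 217 with vehicle in Granta-519, and on the other side ELAVL2 had 91 and 53. Both were named after their values were seen. The genes between each of them and the run had at most 31 counts with chidamide and 6 with vehicle in Granta-519. Chromosome 9 had 534 genes with 30 or more counts over the libraries labelled JeKo-1, and the 5 named above were the ones at 0 in Granta-519. Over the whole table this was so for 61 of 13431 genes, or 0.454%. DNA was not measured in this series.

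**Figure D4:**
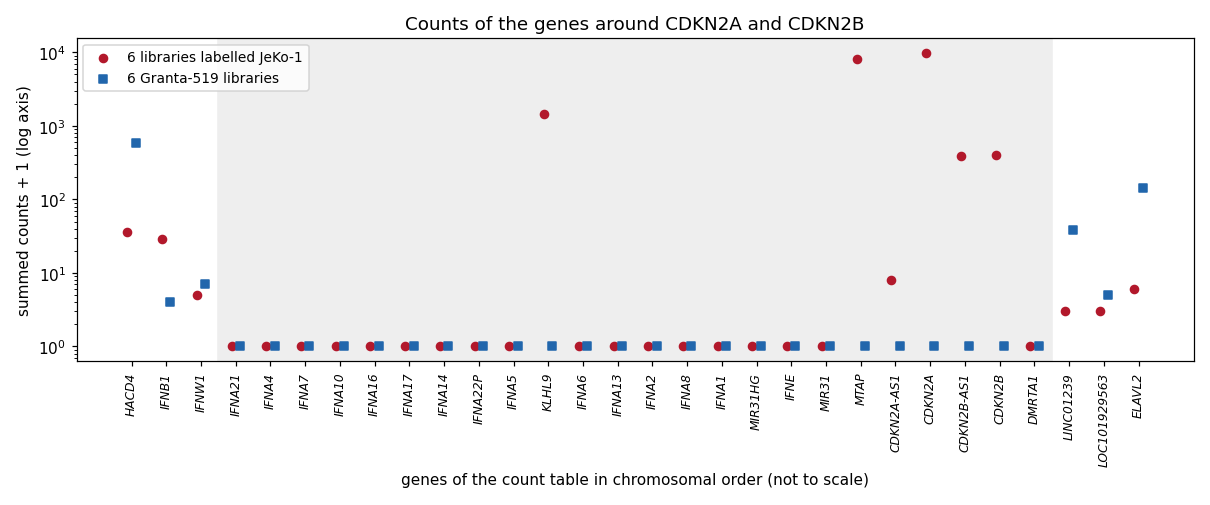
Summed counts plus 1 (y axis, log scale) of consecutive genes around CDKN2A and CDKN2B (x axis, in chromosomal order and not to scale) over the 6 libraries labelled JeKo-1 and the 6 Granta-519 libraries, with grey marking the run of 24 genes at 0 in Granta-519. KLHL9, MTAP, CDKN2A, CDKN2B-AS1 and CDKN2B have counts under the JeKo-1 label inside the run, and HACD4 and ELAVL2 have Granta-519 counts outside it.

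The targets of the inhibitors, like the tested genes as a whole, moved in both directions. Of 13 cyclins and kinases, 5 rose and 7 fell under the JeKo-1 label (median log2 change -0.28). That median was -0.30 with CCND2 held at its bound and CCNA1 left out. In Granta-519 4 rose and 7 fell (median -0.21). Of all tested genes, 35.3% rose and 31.1% fell under the JeKo-1 label, and 39.6% rose and 31.3% fell in Granta-519. CDK4, the kinase that INK4 proteins bind, had 144 ± 1.75 CPM with chidamide and 280.1 ± 17.5 CPM with vehicle under the JeKo-1 label, and 206 ± 7.74 CPM with chidamide and 384 ± 4.13 CPM with vehicle in Granta-519. It fell by 0.96 ± 0.04 (adjusted p = 2.66e-26) and by 0.90 ± 0.04 (adjusted p = 7.41e-26) on the log2 scale. CDK2, the main partner of p21 and p27, fell by 0.40 ± 0.05 under the JeKo-1 label (adjusted p = 4.32e-09) and by 0.82 ± 0.06 in Granta-519 (adjusted p = 4.26e-19).

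CDK6, the other INK4 partner, went opposite ways. It had 272 ± 2.38 CPM with chidamide and 329.6 ± 28.7 CPM with vehicle under the JeKo-1 label (log2 change -0.28 ± 0.05, adjusted p = 1.88e-06), and 17.0 ± 1.89 CPM with chidamide and 8.0 ± 0.64 CPM with vehicle in Granta-519 (1.09 ± 0.10, adjusted p = 7.78e-14). The difference of the effects was -1.37 ± 0.11 (adjusted p = 8.34e-15), though the fall under the JeKo-1 label was not called on the length-scaled values (-0.14, adjusted p = 0.15). Among D-type cyclins, CCND3 fell by 0.44 ± 0.05 under the JeKo-1 label and by 0.32 ± 0.07 in Granta-519 (adjusted p = 4.4e-11 and 0.000151). CCND2 had 8 counts with chidamide and 0 with vehicle under the JeKo-1 label, and rose 3.52-fold in Granta-519, with 19.8 ± 2.18 CPM with chidamide and 5.63 ± 0.90 CPM with vehicle (adjusted p = 2.98e-17). CCND1 rose under the JeKo-1 label (log2 change 2.83 ± 0.46, adjusted p = 3.65e-07, on 44 counts with chidamide and 5 with vehicle) and fell by 0.28 ± 0.04 in Granta-519 (adjusted p = 3.48e-09). CCNA1, a cyclin A gene best known from the testis, had 113 counts with chidamide and 7 with vehicle in Granta-519. Under the JeKo-1 label it had 1 count with chidamide and 0 with vehicle. It passed the filter on low counts only through the chidamide libraries of Granta-519. A rise there was thus favoured by the filter, so no p is given, although CCNA1 is counted among the cyclins and kinases that rose in Granta-519.

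**Figure D5:**
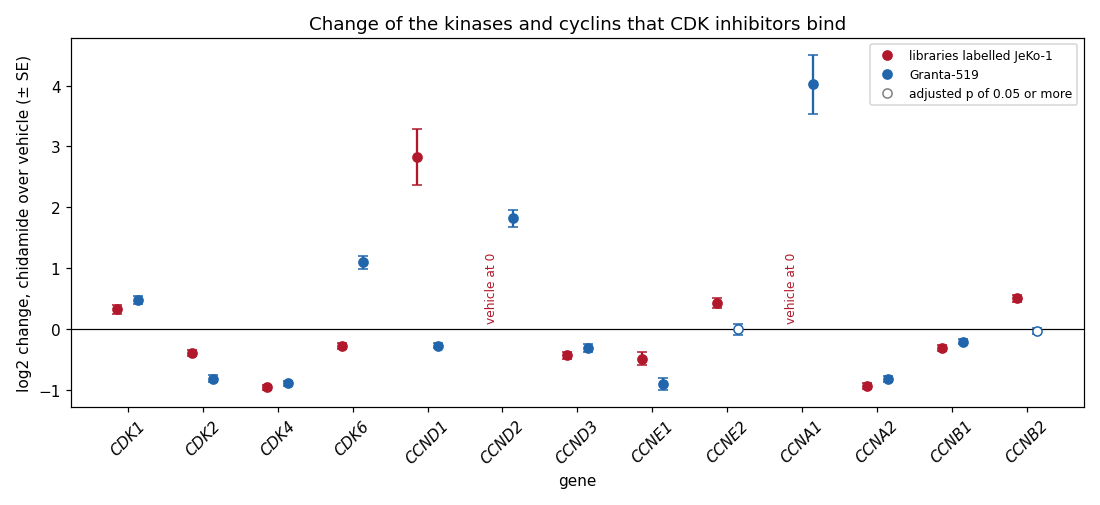
Log2 change with chidamide over vehicle (y axis, with SE) of the 13 kinases and cyclins bound by CDK inhibitors (x axis), for the libraries labelled JeKo-1 and for Granta-519, with open circles where the adjusted p was 0.05 or more. CDK4 lies at -0.96 and -0.90, whereas CDK6 lies at -0.28 under the JeKo-1 label and 1.09 in Granta-519.

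Downstream of the kinases, of 18 E2F target genes, 15 fell and 1 rose under the JeKo-1 label (median log2 change -0.60), and 14 fell and 2 rose in Granta-519 (median -0.40). Of all tested genes, 31.1% and 31.3% fell, with medians of 0.04 and 0.08. The number of E2F targets that rose was 3 under the JeKo-1 label with upper-quartile or library-size scaling and on the length-scaled values, and 1 in Granta-519 without vehicle replicate 1, with no count filter, in a separate fit of that line and on the length-scaled values. MCM7, a subunit of the replicative helicase, fell by 1.1 ± 0.04 under the JeKo-1 label and by 0.78 ± 0.04 in Granta-519 (adjusted p = 8.1e-32 and 4.93e-25). CDC25A, the phosphatase that activates CDK2, fell by 1.07 ± 0.06 and by 0.94 ± 0.06 (adjusted p = 1.57e-23 and 3.04e-19). In the retinoblastoma and E2F family of 13, 4 rose and 7 fell under the JeKo-1 label (median -0.14). In Granta-519 3 rose and 7 fell (median -0.22), but 1 rose there without vehicle replicate 1 of that line or with no count filter. RB1 rose by 0.63 ± 0.06 and 0.36 ± 0.06 (adjusted p = 3.24e-11 and 1.55e-06), and E2F1 fell by 0.87 ± 0.04 and 0.42 ± 0.05 (adjusted p = 2.66e-24 and 2.93e-10). E2F4, a repressive E2F, fell by 0.99 ± 0.05 under the JeKo-1 label (adjusted p = 5.47e-26). E2F8, another repressive E2F, fell by 1.09 ± 0.07 in Granta-519 (adjusted p = 2.23e-21), where TFDP2, an E2F dimer partner, fell by 0.73 ± 0.07 (adjusted p = 1.03e-14). Under the JeKo-1 label TFDP2 rose by 0.15 ± 0.05 (adjusted p = 0.00814), a difference of 0.88 ± 0.08 between the lines (adjusted p = 3.88e-13).

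Genes that act on the inhibitors themselves were set beside them. Of 11 genes of p27 protein turnover, 10 fell and 1 rose under the JeKo-1 label (median log2 change -0.32), and 8 fell and 0 rose in Granta-519 (median -0.34). Of all tested genes, 31.1% and 31.3% fell. The number that rose under the JeKo-1 label was 0 without chidamide replicate 2 or without vehicle replicate 3, and the number that fell there was 6 on the length-scaled values with no filter. The number that rose in Granta-519 was 1 with DESeq2's size factors, in DESeq2, and without chidamide replicate 2 or 3 of that line or vehicle replicate 2 of the JeKo-1 label, and 2 with upper-quartile scaling. UBAC1, a subunit of the KPC ubiquitin ligase of p27, fell by 0.84 ± 0.06 under the JeKo-1 label and by 0.74 ± 0.06 in Granta-519 (adjusted p = 1.67e-17 and 1.62e-16). USP19, a deubiquitinase that stabilises that ligase, fell by 0.66 ± 0.05 and by 0.80 ± 0.05 (adjusted p = 1.72e-16 and 3.48e-20). SKP2, the F-box protein that marks p27 for degradation, fell by 0.26 ± 0.06 under the JeKo-1 label (adjusted p = 4.19e-05), and its log2 change in Granta-519 was -0.11 ± 0.06 (adjusted p = 0.0802). The SKP2 call under the JeKo-1 label was lost with upper-quartile scaling (-0.12, adjusted p = 0.0611) and on the length-scaled values with no filter (-0.13, 0.0519), and SKP2 was called lower in Granta-519 with no count filter (-0.22, 0.000713) and in a separate fit of that line (-0.18, 0.00336). The difference of its effects between the lines was -0.15 ± 0.08 (adjusted p = 0.121).

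Of 25 transcription factors known to act on CDKN1A or CDKN1B, 10 rose and 6 fell under the JeKo-1 label (median log2 change 0.12, or 0.21 with genes at 0 in a group held at their bound and genes at or under 3 counts in both groups left out) and 13 rose and 6 fell in Granta-519 (median 0.19). Of all tested genes, 35.3% rose and 31.1% fell under the JeKo-1 label, and 39.6% rose and 31.3% fell in Granta-519. MYC, which represses CDKN1A, had 203 ± 5.91 CPM with chidamide and 329 ± 8.48 CPM with vehicle under the JeKo-1 label (log2 change -0.70 ± 0.04, adjusted p = 3.03e-21), and 124 ± 3.63 CPM with chidamide and 85.1 ± 1.03 CPM with vehicle in Granta-519 (0.54 ± 0.05, adjusted p = 4.34e-15). TFAP4, a target of MYC that represses CDKN1A, fell by 1.94 ± 0.08 and by 1.20 ± 0.08 (adjusted p = 4.14e-29 and 1.53e-19). FOXO3, an activator of CDKN1B, rose 2.51-fold and 1.92-fold (adjusted p = 3.3e-23 and 7.38e-17). FOXO1, a related activator, rose 1.47-fold under the JeKo-1 label and 6.85-fold in Granta-519 (adjusted p = 4.1e-13 and 2.85e-30). TFAP2A, an AP-2 factor, had 20 counts with chidamide and 3 with vehicle in Granta-519.

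Of 16 Polycomb genes and other regulators of the INK4 genes, 4 rose and 6 fell under the JeKo-1 label (median log2 change 0.00) and 6 rose and 3 fell in Granta-519 (median 0.06), beside 35.3% higher and 31.1% lower, and 39.6% higher and 31.3% lower, of all tested genes. The median under the JeKo-1 label was -0.01 with genes at or under 3 counts in both groups left out. On the length-scaled values 3 fell under the JeKo-1 label, and in Granta-519 6 fell with no count filter and 5 in a separate fit of that line. EZH2, the Polycomb enzyme that methylates histone H3 at the silenced INK4 genes, rose by 0.63 ± 0.04 under the JeKo-1 label (adjusted p = 1.56e-19) and by 0.41 ± 0.04 in Granta-519 (adjusted p = 1.45e-12). KDM6B, the demethylase that removes that mark, fell by 0.44 ± 0.06 and by 0.82 ± 0.08 (adjusted p = 2.47e-08 and 1.3e-13). JDP2, a histone-binding AP-1 protein, had 26 counts with chidamide and 4 with vehicle under the JeKo-1 label. ETS2, an activator of p16 in fibroblasts, rose 1.99-fold in Granta-519 (adjusted p = 2.8e-15).

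Lists of markers of cell types that a pure lymphoma line should lack had sums of at most 21.3 CPM, apart from the epithelial and stromal list. The sums of every list were higher with chidamide. The summed level of 6 myeloid markers was 12.4 to 13.3 CPM with chidamide and 0.41 to 0.89 CPM with vehicle under the JeKo-1 label, and 19.5 to 21.3 CPM with chidamide and 1.07 to 1.65 CPM with vehicle in Granta-519, with CSF1R the largest part except under the JeKo-1 label with vehicle, where LYZ had 14 counts and CSF1R 7, while FCGR3A had 0 counts in all libraries and CD14 5 to 20 counts a group. For 8 T and natural killer cell markers the sums were 6.12 to 8.51 CPM with chidamide and 2.73 to 4.72 CPM with vehicle under the JeKo-1 label. In Granta-519 they were 3.73 to 4.86 CPM with chidamide and 0.80 to 1.20 CPM with vehicle. CD3D had 0 or 1 count a group. Under the JeKo-1 label NKG7 had 217 counts with chidamide and 132 with vehicle, CD3E 68 and 4, and GNLY, the other way, 0 and 1. In Granta-519 CD8A had 69 counts with chidamide and 9 with vehicle, and CD4 63 and 13. For 6 erythroid and megakaryocytic markers the sums were 0.06 to 0.32 CPM with chidamide and 0.00 CPM with vehicle under the JeKo-1 label. In Granta-519 they were 0.81 to 1.34 CPM with chidamide and 0.07 to 0.38 CPM with vehicle. PF4 and PPBP had 0 counts, while in Granta-519 HBA1 had 22 counts with chidamide and 5 with vehicle, and HBA2 19 and 5. For 7 epithelial and stromal markers the sums were 30 to 34.2 CPM with chidamide and 25.1 to 28.2 CPM with vehicle under the JeKo-1 label. In Granta-519 they were 65.6 to 70.6 CPM with chidamide and 58.0 to 63.8 CPM with vehicle, and most of each sum was COL1A1. The part of these markers in the changes of the CDK inhibitor genes was not tested.

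The genes whose level followed each member most closely over the 12 libraries were taken by Pearson's r of log2 CPM. These 12 points are 4 groups of 3, so r mainly follows the 4 group means and carries no p. CDKN1A was nearest to MCTP2 (r = 0.996), INVS (0.995) and HTATSF1P2 (0.995), and CDKN1B to LINC01480 (0.997), ZNF618 (0.997) and ZNF585B (0.996). CDKN1C was nearest to LOC100134868 (0.993), LAMP5-AS1 (0.992) and ZBED5 (0.991). CDKN2A was nearest to MTAP, its neighbour, and to SLC52A3 and BMS1P20, each with r = 1.000 to 3 decimals, where Y-linked genes were not considered. CDKN2B was nearest to PLEK (0.994), ZDHHC14 (0.993) and LINC01387 (0.993), CDKN2C to FBXL19 (0.991), EIF3F (0.987) and FAM160A2 (0.985), and CDKN2D to TRAF1 (0.992), IRF8 (0.992) and ITGB1 (0.989).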

How the data were processed

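Poly(A) RNA of 12 libraries was sequenced. Reads were aligned with STAR to hg19, per the submitters' processing notes; the counting tool, its annotation and its use of strand are not given in the sources used here. The authors deposited whole-number counts per gene, used here as they stand, and a table of length-scaled values, treated as a score because its columns sum to 81790 to 84121 with no fixed total. Of 26364 genes, 4719 had no count, and 28 names had become dates (0.26% of counts, among them no CDK inhibitor gene). The score table also had 6 unnamed per-sample columns that hold no values and were not used.

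All 12 libraries were fitted together as 4 group means in edgeR 4.0.16 (R 4.3.3), with filterByExpr, TMM scaling and the robust quasi-likelihood test, with Benjamini-Hochberg adjustment of p over all 15087 genes tested. CPM are TMM-scaled. The SE of a log2 change is its size divided by the square root of F and is approximate. All 7 CDK inhibitor genes passed the filter, 3 of them through counts in one line. The biological coefficient of variation was 0.0422, on 8 residual degrees of freedom. Where a group had 0 counts, 3 counts over the group were used as the floor. Intervals and floors cover counting error only. The test was checked on simulated counts. Alternatives used DESeq2 1.42.0, limma 3.58.1 on the score, other scalings, no filter, separate fits, a replicate block and each library left out.

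The genes described and the lists they are set beside were chosen with earlier results of these data known. The text names all 7 CDK inhibitor genes and a few fixed partners. From each list it names the 2 genes with the largest called change in each line. It also names listed cell type markers, the nearest patterns and the ends of the run on chromosome 9. Other names are marked as chosen after their values were seen. Some listed genes, and a list that depends on one of them, are not reported here. Promoter sequences are RefSeq's (GRCh38.p14), matched by symbol for 6 of the 7 genes, and CDKN1C was not matched. Gene order is that of RefSeq, and overlaps are from GENCODE 29; neither supplied hg19 coordinates.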

Additional observations from a re-analysis of the deposited data

Results flagged for a closer look

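The effect of chidamide differed between the lines, by the interaction term of the edgeR fit, for 3 CDK inhibitor genes with counts in both. The log2 change under the JeKo-1 label minus that in Granta-519 was 0.72 for CDKN1A, 0.93 for CDKN1B and 0.85 for CDKN2C. For CDKN1A the term compares 2 rises, for CDKN1B a rise with a change that did not pass the test, and for CDKN2C a small fall with a larger one.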

How the results depend on the processing

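Over 23 alternatives, the counts of CDK inhibitor genes called stayed between 4 and 5 under the JeKo-1 label and between 3 and 4 in Granta-519. Over 22 alternatives, they were 3 for the difference of the effects and 7 between the vehicle groups. The main fit called 79.8% of all tested genes between the vehicle groups. The 7 include CDKN1C, CDKN2A and CDKN2B, each at 0 counts in 1 line, so their part of that count was fixed by the filter. The genes behind the count of 5 under the JeKo-1 label were not always the same: with upper-quartile scaling, library-size scaling and 2 settings of the score, CDKN2C was no longer called lower and CDKN2A was called higher, so that 5 were higher and 0 lower, against 4 and 1. Of 429 values of single members, 404 kept their direction and side of the threshold. CDKN2A under the JeKo-1 label turned to -0.01 without vehicle replicate 1 (-0.01 to 0.06 over the libraries left out). CDKN1B in Granta-519, uncalled throughout, turned to 0.02 with DESeq2's size factors, 0.08 with upper-quartile scaling, 0.01 in DESeq2, and 0.02 without chidamide replicate 1 or vehicle replicate 3 (-0.06 to 0.02 over the libraries left out). The CDKN2D difference turned to -0.01 without chidamide replicate 1 of the JeKo-1 label and to -0.02 without chidamide replicate 3 of Granta-519 (-0.02 to 0.11 over the libraries left out). The cause of these turns was not tested. On the score with a pseudocount of 0.1, the CDKN2B change was 1.38, since that pseudocount exceeds its vehicle value of 0.0651.

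Scaling and the count filter moved the split of all calls. Of called genes, 53.1% were higher under the JeKo-1 label, against 64.9% with upper-quartile and 63.7% with library-size scaling, and 50.6% of differences were higher, against 70.0% with library-size scaling. With that scaling the higher neighbours of the members under the JeKo-1 label numbered 11, against 7. Without the count filter, 72.9% of called differences were higher, and 49.9% of called genes were higher in Granta-519, against 55.8% in the main fit.

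With the replicate number as a block, 5 members were called under the JeKo-1 label and 4 in Granta-519. For the difference 3 were called, and between the vehicle groups 7, the same counts as without the block. The 7 include CDKN1C, CDKN2A and CDKN2B, whose difference was fixed by the filter. Same-numbered chidamide and vehicle libraries correlated between -0.0256 and 0.0346 in their deviations from the group means, and differently numbered ones between -0.0337 and 0.0351. These values gave no sign that the numbers pair the libraries. With 3 libraries a group they cannot exclude it.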

Other observations

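The list of chromosomal neighbours of the CDK inhibitor genes held 22 genes, 19 of them with enough counts for the test. With chidamide 7 rose and 5 fell under the JeKo-1 label (median log2 change 0.12) and 9 rose and 3 fell in Granta-519 (median 0.15). The Granta-519 median was 0.19 with genes at or under 3 counts in both groups left out, such as MTAP and CDKN2B-AS1. Of all tested genes, 35.3% rose and 31.1% fell under the JeKo-1 label, and 39.6% rose and 31.3% fell in Granta-519. The neighbours with the largest called changes had few counts. RAB44, near CDKN1A, had 49 counts with chidamide and 2 with vehicle under the JeKo-1 label, and 332 with chidamide and 71 with vehicle in Granta-519, where it rose 4.95-fold (edgeR, adjusted p = 1.35e-12). GPR19, an orphan receptor gene near CDKN1B, had 226 counts with chidamide and 54 with vehicle under the JeKo-1 label (3.58-fold, edgeR, adjusted p = 1.65e-08), and 110 with chidamide and 26 with vehicle in Granta-519 (4.44-fold, adjusted p = 1.58e-07), a line in which CDKN1B did not pass the test. KCNQ1, a potassium channel gene near CDKN1C, had 16 counts with chidamide and 1 with vehicle under the JeKo-1 label.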
